A study of Mus musculus with 8 samples.

Results

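The antioxidant and glutathione genes are 44 genes that make or remove reactive oxygen species, named by symbol and grouped here by what their products do. The platform annotation names 41 of them, each with 1 probe set, among 19505 named genes in all, and Glrx3, Prdx5 and Prdx6 were not analysed here. Expression was measured on Affymetrix whole-transcript arrays in splenic cDC1 of naive wild-type C57BL/6 mice. The cDC1 are the conventional dendritic cells that present antigen to CD8 T cells. Per the labels they were sorted into a TMRM/MG-high fraction (4 arrays) and a TMRM/MG-low fraction (4 arrays), with no other treatment or allele named, and the comparison asks how the transcripts of these fractions differ. TMRM is a dye that gathers in mitochondria according to their membrane potential, and the labels do not spell out MG. No label states whether the replicates came from separate mice, so p-values reflect only how far these 8 arrays scatter, and part of that scatter could come from handling.

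Superoxide leaks from the respiratory chain and is made on purpose by the phagocyte NADPH oxidase. Superoxide dismutases turn it into hydrogen peroxide. The peroxide is then removed by peroxiredoxins, which are recharged by thioredoxin, and by glutathione peroxidases, which spend glutathione; both systems draw on NADPH. The transcription factor NRF2, encoded by Nfe2l2 and held down by Keap1, drives many of these genes through the antioxidant response element. In dendritic cells the oxidase is also known to keep phagosomes from becoming acidic, which slows the breakdown of ingested antigen.

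The 3 members that passed the test are shown first by their promoters, because Gclm and Prdx1 are textbook NRF2 targets. The sequences are from RefSeq (GRCm38.p6), read 5′ to 3′ on the gene's strand from 250 bases before to 50 bases after the annotated start, with the antioxidant response element core TGACNNNGC in capitals on either strand. Gclm lies on the plus strand (chr3:122245307-122245606), Prdx1 on the plus strand (chr4:116685349-116685648) and Prdx4 on the minus strand (chrX:155338411-155338710).
Gclm: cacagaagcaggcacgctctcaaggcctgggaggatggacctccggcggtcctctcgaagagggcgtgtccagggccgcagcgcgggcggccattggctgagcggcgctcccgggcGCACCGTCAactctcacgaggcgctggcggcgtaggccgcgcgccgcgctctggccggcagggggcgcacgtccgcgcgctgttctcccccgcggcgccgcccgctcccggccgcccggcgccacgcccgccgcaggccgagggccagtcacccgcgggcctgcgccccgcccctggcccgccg
Prdx1: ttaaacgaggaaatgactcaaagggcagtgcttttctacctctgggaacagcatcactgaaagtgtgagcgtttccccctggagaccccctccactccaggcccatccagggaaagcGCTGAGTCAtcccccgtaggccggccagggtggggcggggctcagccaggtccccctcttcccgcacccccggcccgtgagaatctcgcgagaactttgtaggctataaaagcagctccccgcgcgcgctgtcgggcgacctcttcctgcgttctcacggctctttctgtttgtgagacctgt
Prdx4: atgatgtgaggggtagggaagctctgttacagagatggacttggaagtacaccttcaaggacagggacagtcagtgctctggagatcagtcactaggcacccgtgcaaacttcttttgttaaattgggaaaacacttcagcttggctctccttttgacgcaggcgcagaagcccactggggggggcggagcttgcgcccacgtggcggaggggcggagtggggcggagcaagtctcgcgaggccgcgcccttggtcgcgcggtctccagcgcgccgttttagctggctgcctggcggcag

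The Gclm window held the core once, as GCACCGTCA, starting 134 bases before the start. The Prdx1 window held it once, as GCTGAGTCA, 133 bases before the start, and there the core overlaps the AP-1 motif TGACTCA read on the other strand. No match was found in the Prdx4 window. A RefSeq window existed for 36 of the 41 measured members, and 9 of these (25%) held the core in at least 1 window, against 14% of all 27025 genes with a window. The other 7 were Nfe2l2, Srxn1, Gstm5, Mgst1, Txnrd1, Sod1 and Msrb2. The median log2 difference, high minus low, was 0.15 over the 9 members with a match and 0.06 over the 27 without one. The 9 ran from -0.07 (Gstm5) to 0.67 (Gclm). Nqo1, also a textbook NRF2 target, was among the 27 (-0.08), so the split does not sort members by NRF2 control. Gclc, Gsr, Gsta4, Msra and Ncf4 had no window and are in neither set. Whether the 2 medians differ was not tested. This is a description of letters in a fixed window, and no binding was measured.

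Of the 41 measured members, 3 were higher and 0 lower in TMRM/MG-high cDC1 at an adjusted p of 0.05 (limma, Benjamini-Hochberg over all 22206 probe sets tested). Gclm, Prdx4 and Prdx1 were the 3. The members called higher made up 7.32%, against 5.28% of all probe sets called higher and 2.96% called lower, so the share was near the background. At an unadjusted p under 0.05, 10 members were higher (24.4%, against 15.3% of all probe sets) and 2, Gss and Txnip, were lower (4.88%, against 10.1% of all). The median difference of the members was 0.07, against 0.01 over all probe sets, and 30 differences were positive and 11 negative.

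In 11 members every TMRM/MG-high array lay above every TMRM/MG-low array, and in 1, Gss, every high array lay below. These are 26.8% and 2.44% of the members, against 9.70% and 6.37% of all probe sets. The background itself depended on signal level. Among the 4395 probe sets with a mean log2 signal of 10 or more, a split chosen after the data were seen, 26.6% lay wholly above and 12.2% were called higher. The 22 members at that level had 8 wholly above (36.4%) and 2 called higher (9.09%), and 36.4% were higher at an unadjusted p under 0.05, against 32.7% of the probe sets of that level. Their median difference was 0.12, against 0.10 over the probe sets of that level. Beside probe sets of like level, the members called higher were thus no larger a share than the background. After quantile normalization of the tested probe sets, the median difference was 0.03 over the 41 members, against -0.0026 over all probe sets, and the calls over all probe sets split into 852 higher and 858 lower, against 1173 and 658 as deposited.

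**Figure D1:**
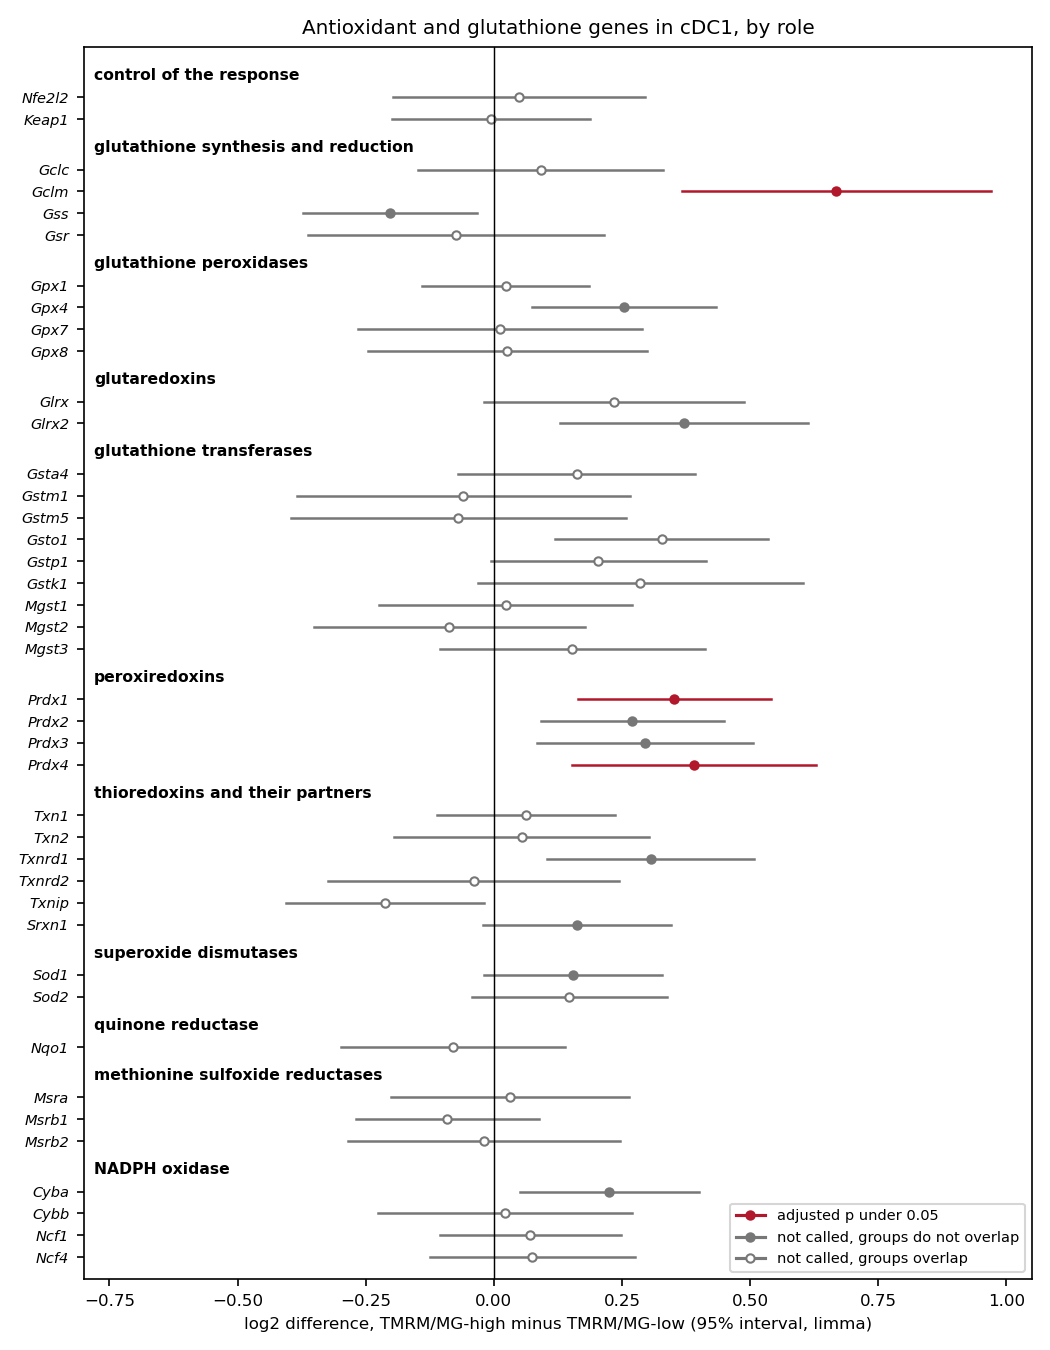
Log2 difference (TMRM/MG-high minus TMRM/MG-low, with its 95% interval from limma) of the 41 measured members, grouped by role. Gclm, Prdx1 and Prdx4 are in red; filled grey points are members whose arrays did not overlap between the fractions but that were not called.

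Of the 4 genes that make glutathione or return it to its reduced form, 1 was called higher, Gclm, against 5.28% of all probe sets. At an unadjusted p under 0.05, 1 was higher and 1, Gss, lower (25% each, against 15.3% and 10.1% of all probe sets). Gclm encodes the modifier subunit of glutamate-cysteine ligase, the enzyme of the rate-limiting step. Its log2 signal was 8.09, 8.67, 8.17 and 8.33 on the TMRM/MG-high arrays, against 7.40, 7.52, 7.85 and 7.80 on the TMRM/MG-low arrays. The fractions did not overlap, and high replicate 2 stood above the other high arrays. Gclm averaged 8.31 ± 0.26 in the high and 7.65 ± 0.21 in the low fraction (SD, n = 4 each), a log2 difference of 0.67 (SE 0.14, 1.59-fold, limma adjusted p = 0.0177). Its call was lost without high replicate 2 (difference 0.55, adjusted p = 0.0508), low replicate 1 (0.59, adjusted p = 0.052) or low replicate 2 (0.63, adjusted p = 0.0502). With the mean level of the poly-A spike-in controls as a covariate the difference was 0.20 (SE 0.27) and not called. Spike-in levels did not overlap between the fractions, so this fit cannot separate the covariate from the fraction. It called 0 of all 22206 probe sets higher.

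Gclc, the catalytic subunit of the same ligase, read 11.09, 11.41, 11.36 and 11.21 in the high fraction, against 11.00, 11.42, 11.20 and 11.08 in the low fraction. The fractions overlapped, and the difference was 0.09 with a 95% interval of -0.15 to 0.33. Gss, the synthetase of the second step, read 7.66, 7.48, 7.60 and 7.63 in the high fraction, against 7.76, 7.79, 7.79 and 7.84 in the low fraction. All high arrays were below all low arrays, yet the difference of -0.20 (SE 0.08) did not pass the test (limma adjusted p = 0.128). Gsr, which returns oxidised glutathione to its reduced form, differed by -0.07 with an interval of -0.36 to 0.22. Whether the difference of Gclm itself exceeds that of Gclc was not tested.

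None of the 15 measured genes of the glutathione peroxidase, glutaredoxin and glutathione transferase families was called by limma. At an unadjusted p under 0.05, 3 were higher (20%, against 15.3% of all probe sets) and 0 lower. Gpx4, the peroxidase that reduces lipid peroxides in membranes, read 11.60, 11.78, 11.68 and 11.75 in the high fraction, against 11.34, 11.53, 11.50 and 11.43 in the low fraction. The arrays did not overlap, with a difference of 0.25 (SE 0.08, limma adjusted p = 0.078). Gpx1, the main cytosolic peroxidase, differed by 0.02 (interval -0.14 to 0.19). Gpx7 and Gpx8, which sit in the endoplasmic reticulum, differed by 0.01 and 0.03. Glrx2, a mainly mitochondrial glutaredoxin, read 11.88, 12.06, 12.14 and 12.06 in the high fraction, against 11.37, 11.69, 11.86 and 11.75 in the low fraction. Its high arrays were all above its low arrays, and the difference of 0.37 (SE 0.11) missed the threshold (limma adjusted p = 0.0606). Cytosolic Glrx differed by 0.23 (SE 0.12) and overlapped, since low replicate 3 (9.70) was above 3 of the high arrays.

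The 9 glutathione transferases, which attach glutathione to reactive compounds, ran from -0.09 (Mgst2) to 0.33 (Gsto1), with a median of 0.15. Gsto1 had an interval of 0.12 to 0.54 and an adjusted p of 0.0558 by limma. High replicate 1 (10.73) lay just below low replicate 3 (10.75) for this gene, so the fractions overlapped. Gstk1, found in mitochondria and peroxisomes, differed by 0.29, Gstp1 by 0.20, Gsta4 by 0.16 and Mgst3 by 0.15. The intervals of these 4 reached from below 0 to between 0.39 and 0.60. Gstm1 (-0.06), Gstm5 (-0.07) and Mgst1 (0.02) differed by less than their SE. Gstm1 and Gstm5 belong to a family of related genes, some of which may share probes, so their values are uncertain to that extent.

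All 4 measured peroxiredoxins had every high array above every low array, as did 9.70% of all probe sets and 26.6% of those of level 10 or more. Each had an unadjusted p under 0.05 with a positive difference, as did 15.3% and 32.7% of those probe sets, and 2 were called (5.28% and 12.2%). Their differences lay between 0.27 and 0.39, with a median of 0.32. The mean level of Prdx3 was 8.98, so the shares at level 10 or more are not of like level for Prdx3. Prdx4, the peroxiredoxin of the endoplasmic reticulum, read 10.06, 10.31, 10.46 and 10.29 in the high fraction, against 9.98, 9.645, 9.98 and 9.95 in the low fraction. High replicate 1 stood only just above the highest low arrays, and low replicate 2 was far below the other low arrays. The averages were 10.3 ± 0.17 and 9.89 ± 0.16 (SD, n = 4 each), a difference of 0.39 (SE 0.11, 1.31-fold, limma adjusted p = 0.0483).

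Prdx1, the abundant cytosolic peroxiredoxin, read 11.93, 12.08, 12.02 and 12.18 in the high fraction, against 11.68, 11.71, 11.81 and 11.60 in the low fraction. The fractions were clearly apart, with a difference of 0.35 (SE 0.09, 1.28-fold, limma adjusted p = 0.0311). Prdx2, also cytosolic, read 12.70, 12.81, 12.79 and 12.73 in the high fraction, against 12.43, 12.54, 12.60 and 12.37 in the low fraction. It did not overlap and was not called (0.27, SE 0.08, adjusted p = 0.0632 by limma).

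Prdx3, the mitochondrial peroxiredoxin, read 9.17, 9.31, 8.889 and 9.16 in the high fraction, against 8.76, 8.85, 8.886 and 8.85 in the low fraction. High replicate 3 was only just above low replicate 3, and the difference of 0.29 (SE 0.10) was not called (adjusted p = 0.0816 by limma). The Prdx1 and Prdx4 calls were each kept in 2 of the 8 omissions of 1 array, those of high replicate 1 and low replicate 3. Without the other arrays the adjusted p reached 0.0901 for Prdx1 and 0.14 for Prdx4. After quantile normalization of the tested probe sets, neither was called (0.28, adjusted p = 0.0526, and 0.31, adjusted p = 0.0954). With the replicate number as a block in limma, neither was called (adjusted p = 0.0506 for Prdx1 and 0.0555 for Prdx4). Prdx4 also missed the threshold after median centring (0.38, adjusted p = 0.0553), and both did with the spike-in covariate, at 0.19 (SE 0.19) for Prdx1 and -0.06 (SE 0.19) for Prdx4. As for Gclm, the spike-in fit cannot separate the covariate from the fraction.

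**Figure D2:**
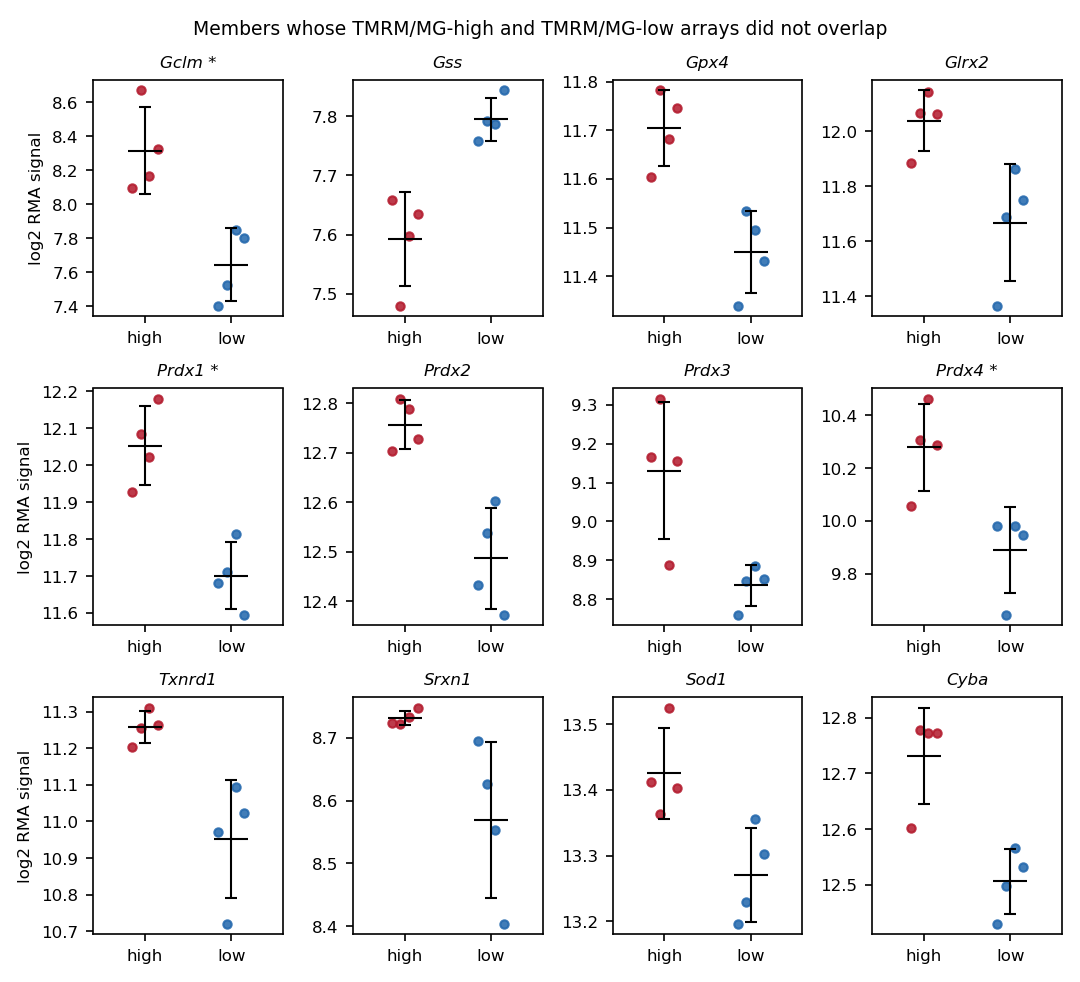
Log2 RMA signal on each array (points) with the mean and SD (bars, n = 4) for the 12 members whose TMRM/MG-high and TMRM/MG-low arrays did not overlap; an asterisk marks the 3 called members. Gss is the only panel with the high fraction below, and the vertical axes differ between panels.

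The thioredoxin genes, which recharge the peroxiredoxins, did not share one direction, and none was called by limma. At an unadjusted p under 0.05, 1 was higher and 1 lower (16.7% each, against 15.3% and 10.1% of all probe sets). Txnrd1, the cytosolic thioredoxin reductase, read 11.20, 11.25, 11.31 and 11.26 in the high fraction, against 10.97, 10.72, 11.09 and 11.02 in the low fraction. The high arrays were tightly grouped and all above the low ones, at a difference of 0.31 (SE 0.09, limma adjusted p = 0.0635). Txnrd2, its mitochondrial counterpart, differed by -0.04 with an interval of -0.32 to 0.24. The thioredoxins themselves differed little: cytosolic Txn1 by 0.06 (interval -0.11 to 0.24) and mitochondrial Txn2 by 0.05 (interval -0.19 to 0.30).

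Srxn1, the sulfiredoxin that repairs overoxidised peroxiredoxins, read 8.72, 8.72, 8.73 and 8.75 in the high fraction, against 8.69, 8.63, 8.55 and 8.404 in the low fraction. It did not overlap, but the difference was small (0.16, SE 0.08, adjusted p = 0.251 by limma). Txnip, which binds thioredoxin and blocks it, had the lowest difference of the 41 members, at -0.21 (interval -0.40 to -0.02, adjusted p = 0.158 by limma). Its high replicate 4 (12.61) lay above low replicate 2 (12.59), so the fractions overlapped.

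Both superoxide dismutases had small positive differences that were not called. Sod1, the copper-zinc enzyme of the cytosol, read 13.41, 13.36, 13.52 and 13.40 in the high fraction, against 13.20, 13.23, 13.36 and 13.30 in the low fraction. Its arrays did not overlap, by a margin of under 0.01 between high replicate 2 and low replicate 3, and the difference was 0.15 (SE 0.08, adjusted p = 0.25 by limma). Sod2, the manganese enzyme of the mitochondrial matrix, read 10.05, 10.22, 10.19 and 10.17 in the high fraction, against 9.87, 10.14, 10.07 and 9.96 in the low fraction. The fractions overlapped, with a difference of 0.15 and an interval of -0.04 to 0.34.

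The 7 members whose products work mainly in mitochondria (Prdx3, Glrx2, Gstk1, Sod2, Txn2, Txnrd2 and Msrb2) ran from -0.04 to 0.37 with a median of 0.15. None was called by limma. At an unadjusted p under 0.05, 2 were higher, Prdx3 and Glrx2 (28.6%, against 15.3% of all probe sets). The highest upper bound among their 95% intervals was 0.61, that of Glrx2.

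The phagocyte NADPH oxidase genes, from which much of the superoxide of myeloid cells comes, had differences of 0.02 to 0.23 with a median of 0.07. None of 4 was called by limma. At an unadjusted p under 0.05, 1 was higher (25%, against 15.3% of all probe sets). Cyba, the small membrane subunit, read 12.60, 12.78, 12.77 and 12.77 in the high fraction, against 12.43, 12.50, 12.57 and 12.53 in the low fraction. It did not overlap, with high replicate 1 far below the other high arrays, and differed by 0.23 (SE 0.08, limma adjusted p = 0.105). Cybb, the catalytic subunit, read 11.55, 11.73, 11.50 and 12.01 in the high fraction, against 11.73, 11.65, 11.55 and 11.77 in the low fraction. The high arrays surrounded the low ones, and the interval of the difference was -0.23 to 0.27. The cytosolic organiser Ncf1 (0.07, interval -0.10 to 0.25) and Ncf4 (0.07, interval -0.13 to 0.28) also overlapped.

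The regulators differed little between the fractions. Nfe2l2 read 8.57, 8.57, 8.39 and 8.31 in the high fraction, against 8.72, 8.31, 8.30 and 8.31 in the low fraction. Low replicate 1 was the highest of the 8 arrays, and the interval of the difference was -0.20 to 0.30. Keap1 read 9.91, 9.84, 10.05 and 9.83 in the high fraction, against 9.91, 9.999, 9.98 and 9.75 in the low fraction, with an interval of -0.20 to 0.19. Transcript levels do not show the activity of NRF2, which is set largely by protein turnover.

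Nqo1, a quinone reductase and a textbook NRF2 target, read 6.21, 6.59, 6.19 and 6.203 in the high fraction, against 6.31, 6.43, 6.36 and 6.41 in the low fraction. Both means lay below the median of the negative control probe sets (6.86 in the high and 6.76 in the low fraction), so the array may not measure this gene here. The same was true of Msrb2, a mitochondrial methionine sulfoxide reductase (6.47 and 6.49). The other methionine sulfoxide reductases, which repair oxidised methionine in proteins, differed by 0.03 (Msra, interval -0.20 to 0.26) and -0.09 (Msrb1, interval -0.27 to 0.09). In all, 20 of the 41 members differed by less than their own SE.

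**Figure D3:**
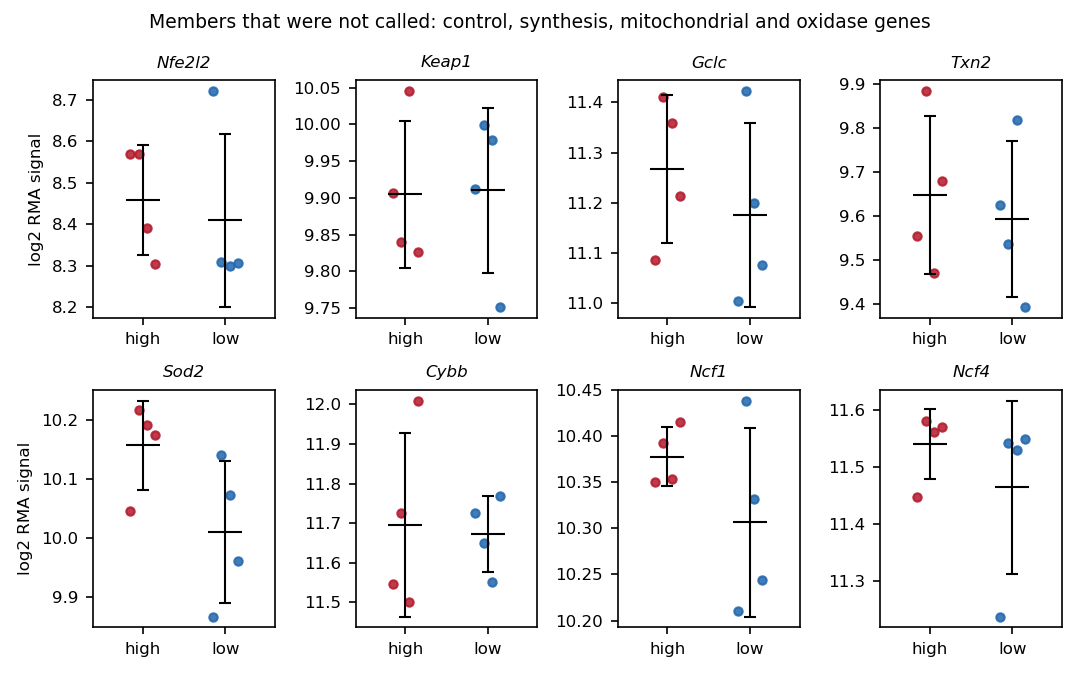
Log2 RMA signal on each array (points) with the mean and SD (bars, n = 4) for 8 members that were not called. The TMRM/MG-high and TMRM/MG-low arrays overlap in every panel.

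A further 70 redox genes outside the members were listed, of which 65 were analysed here. Of the 65, 7 were called higher by limma (10.8%, against 5.28% of all probe sets and 12.2% of those of level 10 or more) and 0 lower. At an unadjusted p under 0.05, 19 were higher (29.2%, against 15.3% and 32.7%) and 0 lower (against 10.1% and 11.8%). The median difference of the 65 was 0.14, against 0.01 over all probe sets and 0.10 over those of level 10 or more. Their median level was 9.55, so neither background is of exactly like level. The 7 included Idh2, the NADP-dependent isocitrate dehydrogenase of mitochondria (0.47, SE 0.08, limma adjusted p = 0.0104), and Pgls of the pentose phosphate pathway (0.41, SE 0.10). Other analysed genes of NADPH supply or the pentose phosphate pathway were not called: Me1 at 0.25, Taldo1 at 0.21, Idh1 at 0.19 and Pgd at 0.0046. Both means of Me1 (6.16 in the high and 5.91 in the low fraction) lay below the negative control median, so the array may not measure it here. G6pdx, Tkt and Nnt were listed but not analysed here. Idh2 read 11.08, 11.11, 11.09 and 11.01 in the high fraction, against 10.59, 10.48, 10.72 and 10.62 in the low fraction, well apart.

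The others were Blvra, a biliverdin reductase (0.57), the quinone reductase Nqo2 (0.53), Glo1, which detoxifies methylglyoxal with glutathione (0.39), Mafk, a small MAF protein that pairs with NRF2 on DNA (0.38), and Ccs, the copper chaperone that loads SOD1 (0.34). Catalase (Cat) had no overlap and was not called (0.27, limma adjusted p = 0.0625). Further NRF2 targets showed values on both sides of 0: Hmox1, the inducible heme oxygenase, -0.07, the cystine transporter Slc7a11 -0.36 and the ferritin chains Fth1 0.20 and Ftl1 0.13, none of them called.

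**Figure D4:**
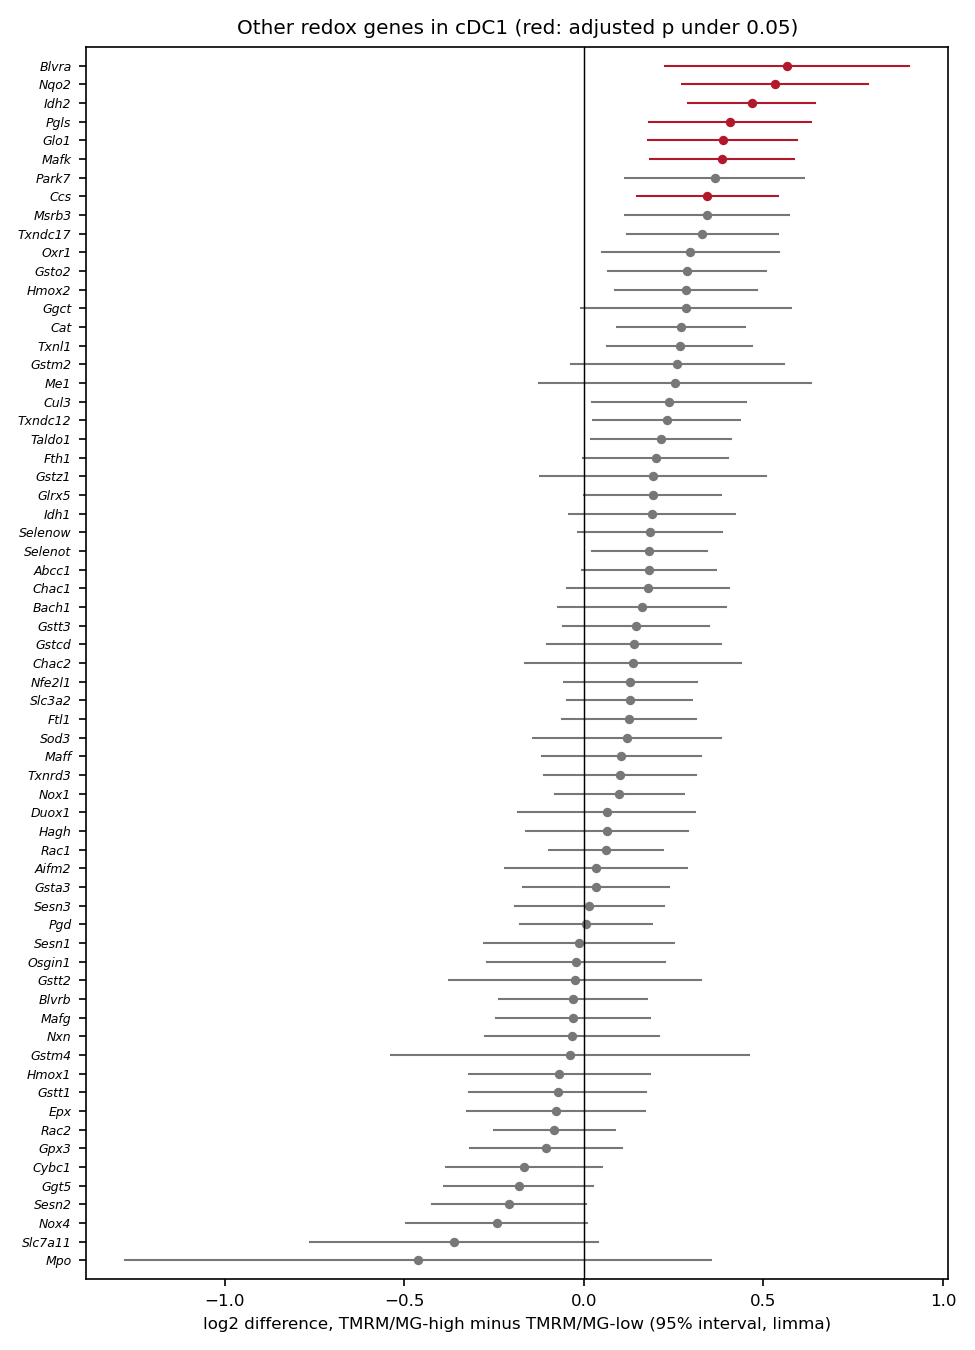
Log2 difference (TMRM/MG-high minus TMRM/MG-low, with its 95% interval from limma) of 65 redox genes that are not members, in order of size. The 7 called genes, in red, are Blvra, Nqo2, Idh2, Pgls, Glo1, Mafk and Ccs.

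Control probe sets and markers of other cells also differed between the fractions. The mean of the 4 poly-A spike-ins was 5.99 to 6.96 on the high arrays and 7.27 to 7.85 on the low arrays, without overlap. The mean of the hybridization controls was 11.7 to 11.9 on the high arrays and 12.3 to 12.6 on the low arrays. The median of the positive (exon) controls was 10.38 to 10.49 on the high arrays and 10.21 to 10.37 on the low arrays, so these did not overlap either. With the poly-A level as a covariate no member was called by limma. Across the 10 cDC1 markers, among them Xcr1 and Clec9a, the mean level was 12.0 to 12.2 in the high and 11.9 to 12.2 in the low fraction, and 0 of 10 were called (limma; 2 higher and 1 lower at an unadjusted p under 0.05). Of 13 plasmacytoid dendritic cell markers 11 were higher, with list levels of 9.95 to 10.4 in the high and 9.23 to 9.41 in the low fraction. Over all probe sets 5.28% were called higher and 2.96% lower by limma, and 15.3% and 10.1% at an unadjusted p under 0.05. The marker lists were chosen with earlier results of these data known, so their counts are a description and no independent support.

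Of 8 T and NK cell markers 3 were lower (levels of 8.96 to 9.56 in the high and 9.31 to 10.2 in the low fraction), 6 were lower at an unadjusted p under 0.05, and 7 differences were negative, with a median of -0.77. Neutrophils are rich in the NADPH oxidase, and 1 of their 7 markers, Csf3r, was lower (levels of 8.61 to 9.91 in the high and 9.54 to 10.8 in the low fraction). At an unadjusted p under 0.05, 3 of the 7 were lower, and all 7 differences were negative, from -0.99 to -0.46. Of all probe sets, 2.96% were called lower by limma, and 10.1% were lower at an unadjusted p under 0.05. Of 8 cDC2 markers 0 were called (limma; 1 higher and 1 lower at an unadjusted p under 0.05). Of 9 macrophage and monocyte markers 1, Ly6c1, was higher (0.72). Ly6c2, counted above with the plasmacytoid markers, was also higher (0.85), so the Ly6c1 call does not by itself mark monocytes. Of 5 B cell and 3 erythroid markers none was called by limma or had an unadjusted p under 0.05. The part of the spike-in difference and of these other cell types in the members' differences was not tested. In sorted bulk samples, fewer cells of a type and less RNA per cell cannot be told apart.

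**Figure D5:**
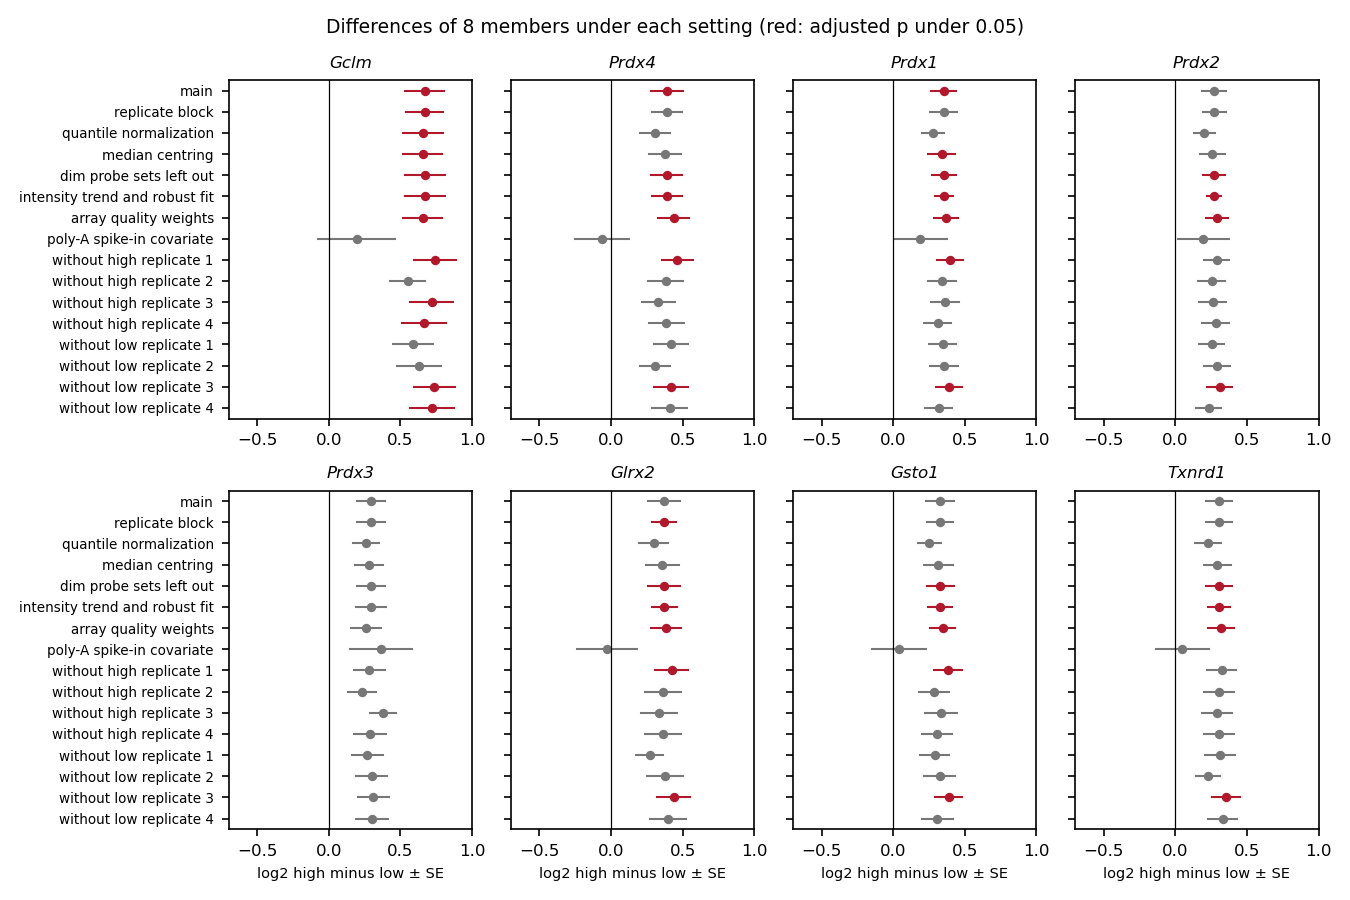
Log2 difference (TMRM/MG-high minus TMRM/MG-low, ± SE) of 8 members under each processing setting and with each array left out, in red where the limma adjusted p is under 0.05. Gclm lies between 0.55 and 0.74 except with the spike-in covariate (0.20), and Prdx3 is called under no setting shown.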

How the data were processed

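The values are the deposited log2 signals of 8 arrays. Per the submitters' processing notes, the authors made them with RMA in Affymetrix Expression Console 1.1, which corrects background, gives all arrays one distribution and summarises probes per probe set. Per the labels, RNA was extracted with a column kit and labelled with the Whole Transcript Plus kit. Differences are therefore relative to the other probe sets. No file header or label names a genome build for the arrays, and with 4 arrays a group their number sets the precision.

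Of 28846 rows, 6640 controls were left out. The other 22206 probe sets were compared by limma 3.58.1 (R 4.3.3; lmFit, eBayes, no block, two-sided). Gene symbols come from the platform annotation. The members, gene lists and tests were chosen with earlier results of these data known. Every member is named. Array values are given for called and non-overlapping members and for Nfe2l2, Keap1, Gclc, Sod2, Cybb and Nqo1. Same-numbered arrays deviated from their group means with correlations of 0.27, 0.05, 0.02 and 0.04 across probe sets. For replicate 1 this was above the range with other numbers (-0.29 to 0.08). For each of the others it lay within that replicate's own range. No label states what a replicate number marks, so the main fit has no block, and whether the numbers pair the arrays is not known. Alternatives were the replicate number as a block, further scaling, a filter on dim probe sets, a trended robust fit, array weights, a spike-in covariate, other thresholds and leaving out each array. Each member has 1 probe set, so averaging probe sets changed nothing. Figures were drawn with matplotlib 3.10.9.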

Additional observations from a re-analysis of the deposited data

Results flagged for a closer look

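In 82 groups of 4 arrays (41 members in each fraction), 7 had an array standing apart from the other 3 by more than Dixon's 95% critical value for 4 samples, where chance gives about 1 in 20. Low replicate 2 was low for Prdx4 (9.645, next array 9.95), a called member. High replicate 1 was low for Cyba (12.60, next 12.77) and for Ncf4 (11.45, next 11.56), and low replicate 1 was low for Ncf4 (11.24, next 11.53). High replicate 2 was high for Mgst3 (8.69, next 8.30) and for Nqo1 (6.59, next 6.21). Low replicate 1 was high for Nfe2l2 (8.72, next 8.31).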

How the results depend on the processing

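The number of members called higher (3 as reported) was 1 when tested probe sets were quantile-normalized again, 7 without dim probe sets, 10 with an intensity trend and robust fit (and 1 lower, Txnip, adjusted p = 0.0246), 7 with array weights, 0 with the poly-A spike-in covariate, 0 at a threshold of 0.01 and 9 at 0.1. Leaving out 1 array gave 0 to 8 higher. The count was 0 without high replicate 2, low replicate 1 or low replicate 2. It was 1 without high replicate 3, high replicate 4 or low replicate 4, 5 without high replicate 1 and 8 without low replicate 3. Counts of 0, 1, 5 and 8 are 0%, 2.44%, 12.2% and 19.5% of the members. The share of all probe sets called higher moved as well. In the order just given it was 0.824%, 1.65%, 1.97%, 1.15%, 1.78%, 2.25%, 6.11% and 7.57%. A smaller group also has less power. The share of all probe sets called higher was 3.84% after quantile normalization and 8.29% without dim probe sets. It was 8.78% with the trended robust fit, 7.53% with array weights and 0% with the spike-in covariate. At thresholds of 0.01 and 0.1 it was 0.329% and 9.28%. Members wholly above numbered 7 after median centring (7.83% of all probe sets) and 9 after quantile normalization (8.43%), against 11 as reported (9.70%). On leaving out 1 array they numbered 11 to 15, against 10.4% to 15.4% of all probe sets. Members wholly below numbered 2 after quantile normalization (7.998% of all) and 1 to 3 on leaving out 1 array (7.78% to 10.4% of all). With the replicate block, 2 members were called higher, Gclm and Glrx2 (4.88%, against 5.52% of all probe sets). The limma adjusted p was 0.0336 for Glrx2, 0.0506 for Prdx1 and 0.0555 for Prdx4.

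Across all probe sets, 1173 were higher and 658 lower; the counts were 1950 higher with the trended robust fit, 73 and 113 at a threshold of 0.01, 2061 and 1174 at 0.1, 0 and 0 with the spike-in covariate, and from 183 to 1680 higher on leaving out 1 array.

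With the spike-in covariate 16 members changed sign, 7 of them with a reported difference of 0.15 or more (the called Prdx4 at 0.39, and Glrx2, Gstk1, Glrx, Cyba, Gstp1 and Mgst3): Keap1 0.020, Gclc -0.062, Glrx -0.088, Glrx2 -0.029, Gstm5 0.088, Gstp1 -0.013, Gstk1 -0.11, Mgst1 -0.47, Mgst3 -0.031, Prdx4 -0.064, Txn1 -0.040, Txn2 -0.050, Msrb1 0.0058, Cyba -0.00064, Cybb -0.086 and Ncf4 -0.12. Signs also turned after quantile normalization for Mgst1 -0.0015, Txn2 -0.0017, Msra -0.052, Cybb -0.055, Ncf1 -0.017 and Ncf4 -0.0020, after centring for Gpx7 -0.0017, and with array weights for Keap1 0.029, Gpx7 -0.0049, Gpx8 -0.0091, Txnrd2 0.036 and Cybb -0.0081. On leaving out 1 array the ranges that crossed 0 were Gsr -0.16 to 0.0093, Gpx7 -0.076 to 0.11, Gpx8 -0.091 to 0.083, Gstm1 -0.17 to 0.085, Txnrd2 -0.12 to 0.091, Msrb2 -0.14 to 0.047, Keap1 -0.058 to 0.024, Mgst1 -0.039 to 0.12, Txn2 -0.024 to 0.13, Gpx1 -0.0032 to 0.046, Msra -0.034 to 0.11, Cybb -0.083 to 0.087, Ncf4 -0.00062 to 0.11 and Gstm5 -0.17 to 0.040. The cause of these changes was not tested. Spike-in levels did not overlap between the fractions, so the fit with that covariate cannot separate the covariate from the fraction. Dim members (Nqo1 and Msrb2) had no value once dim probe sets were left out.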
